A study of Mus musculus with 4 samples.

Results

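These results concern 47 genes of mouse chromosome 15 in NF639 cells, a mouse mammary tumour line from a tumour driven by the ErbB2 oncogene. They are 47 of 7514 genes tested, and 47 of the 306 tested genes that lie on chromosome 15. A pool of NF639 cells that resisted EGCG (epigallocatechin 3-gallate, a polyphenol of green tea) was compared with the original NF639 population, with 2 Affymetrix Mouse 430A 2.0 arrays in each group. The arrays of a group hold RNA of independent experiments, per the study's design text. The resistant cells are a pool and the original cells a population of the same line, and the labels do not say whether EGCG was present at harvest. The listed genes were chosen by the values of this same comparison, as runs of neighbouring genes with higher signals in the resistant pool, so their differences between resistant and original cells are a description and carry no test. Each gene is represented by its brightest probe set among those that the platform annotation gives to that gene alone.

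Genes that are neighbours on a chromosome share their DNA copy number and can share a chromatin environment, and in a tumour line either can differ between cell populations. Their products usually do unrelated jobs, so a shift shared by neighbours crosses many pathways at once. Mouse chromosome 15 carries Myc, the growth-promoting transcription factor gene, and a cluster of keratin genes. The arrays measured RNA, and neither DNA copy number nor chromatin was measured here.

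By their order on the chromosome the listed genes fell into 2 blocks with 182 tested genes between them. The first block ran from Zfr to Ankrd46 with 23 listed genes, and the second from Arsa to Spats2 with 24. RefSeq start-site windows, 250 bases before to 50 bases after a start, were at hand for 32 of the 47 genes. Of these genes, 4 with a single listed start are printed below. Otulin and Spats2, 1 from each block, had both resistant arrays above both original arrays, Vdr had the largest difference of the list, and Trio was the 1 listed gene with both resistant arrays below both original arrays. The windows are from GRCm38.p6 and are written on the strand of the gene, Otulin at chr15:27630644-27630943 (minus strand), Trio at chr15:28025799-28026098 (minus), Vdr at chr15:97908247-97908546 (minus) and Spats2 at chr15:99126595-99126894 (plus). Capitals mark the GC box GGGCGG or its reverse complement CCGCCC, a sequence that Sp-family factors can bind.
Otulin: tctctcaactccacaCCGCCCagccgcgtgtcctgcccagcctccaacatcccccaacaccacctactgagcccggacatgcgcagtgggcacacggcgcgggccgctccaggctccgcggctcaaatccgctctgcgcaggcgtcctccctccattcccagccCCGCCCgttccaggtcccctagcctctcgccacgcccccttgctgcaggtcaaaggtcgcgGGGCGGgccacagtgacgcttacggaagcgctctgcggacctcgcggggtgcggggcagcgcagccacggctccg
Trio: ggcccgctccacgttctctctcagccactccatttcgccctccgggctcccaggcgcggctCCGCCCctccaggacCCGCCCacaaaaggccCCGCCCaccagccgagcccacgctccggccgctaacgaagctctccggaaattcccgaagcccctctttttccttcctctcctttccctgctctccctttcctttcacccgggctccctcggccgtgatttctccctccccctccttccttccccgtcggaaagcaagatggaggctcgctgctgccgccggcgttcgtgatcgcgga
Vdr: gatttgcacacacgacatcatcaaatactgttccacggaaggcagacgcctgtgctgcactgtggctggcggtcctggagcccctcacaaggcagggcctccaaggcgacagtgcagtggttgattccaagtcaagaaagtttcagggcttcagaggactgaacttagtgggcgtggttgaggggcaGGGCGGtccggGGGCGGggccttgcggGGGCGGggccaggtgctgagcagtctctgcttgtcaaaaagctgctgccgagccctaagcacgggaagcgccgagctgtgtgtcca
Spats2: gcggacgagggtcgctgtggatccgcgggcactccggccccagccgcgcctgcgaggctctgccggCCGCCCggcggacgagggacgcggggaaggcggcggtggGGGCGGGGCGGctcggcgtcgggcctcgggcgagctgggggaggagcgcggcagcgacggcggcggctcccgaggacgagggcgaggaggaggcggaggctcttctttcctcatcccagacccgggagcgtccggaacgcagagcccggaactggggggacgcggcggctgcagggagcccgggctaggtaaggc

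Each of these 4 windows held 3 GC boxes, the overlapping pair in Spats2 counted separately. None held the CCAAT box, the TATA box (searched as TATAAA) or the E box CACGTG on either strand. Over the 46 windows of the 32 matched genes 58.7% held a GC box, beside 35.7% of all 32851 windows in the table and 65.7% of the 7961 windows of all genes tested here. The median GC content of the listed genes' windows was 63.0%, beside 61.3% for the genes tested. CCAAT was found in 6 of the listed genes' 46 windows, or 13.0%. It was found in 37.4% of all windows, 37.5% of those of the genes tested and 41.5% of those of other chromosome 15 genes tested. TATAAA was found in 2.17% of the listed genes' windows and CACGTG in 6.52%, beside 13.6% and 7.15% of all windows and 6.73% and 10.5% of those of the genes tested. Windows of the other chromosome 15 genes tested gave 70.2% for the GC box, 7.98% for TATAAA and 11.7% for CACGTG. Several windows can come from 1 gene, TATAAA was found in 1 listed window, and no difference between these shares was tested. These are matches of letters on both strands, not sites of binding.

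The deposited values are MAS5 signals on a linear scale, with the same trimmed mean on every array, so a difference in total RNA between the populations would not show. Differences are given on the scale log2(signal + 3), resistant minus original. By 7 probe sets of control transcripts spiked in before hybridisation (BioB, BioC, BioDn), the arrays split by replicate number: the array numbered 2 was brighter by 1.48 to 2.29 times in the resistant pool and by 1.39 to 2.11 times in the original population. No label names a batch, and each number holds 1 array of each group, so differences within each number are given as well. Only 1 of 10 markers of mammary epithelium, Erbb2, passed the filter on dim probe sets, with signals of 280.7 and 326.2 in the resistant pool and 319.7 and 299.4 in the original population. Epcam, Cdh1, Krt8, Krt18 and the other epithelial markers lay under the filter, a mean signal of 51.9, in this breast cancer cell line. The summed signal of 8 fibroblast markers was 8055 and 6073 in the resistant pool, against 7537 and 6328 in the original population. Of these, 6 passed the filter, 4 of them fitted above 0 and 2 below, from -2.15 for Dcn and -0.62 for Col1a2 to 1.99 for Col3a1 on the log2 scale. Col3a1, a collagen gene, was the 1 that passed the test (limma adjusted p = 0.0477). The summed signal of 6 leukocyte markers was 370.3 and 277.8 in the resistant pool, against 433.2 and 265.9 in the original population, and 5 endothelial markers summed to 57.1 and 32.8, against 40.7 and 70.1. Ptprc, the leukocyte common antigen, had signals of 14.8 or less on every array. These sums overlapped between the groups, and the part of other cells in the results below was not tested.

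All 47 listed genes passed the filter on dim probe sets. Their median difference was 0.35 on the log2 scale, or 1.28-fold, with an interquartile range of 0.15 to 0.54. Of the 47, 41 had a fitted value above 0 and 6 below, beside 52.7% above 0 over all genes tested. In 23 of the 47 both resistant arrays lay above both original arrays, against 19.9% of all genes tested. In 1, Trio, both lay below, against 1300 of all 7514 genes tested. The remaining 23 overlapped between the groups. With limma and Benjamini-Hochberg adjustment over all probe sets 0 of the 47 passed, where 0.319% of all genes tested did; at an unadjusted p under 0.05 there were 11, all higher, where 4.07% of genes were called higher. The rule used this contrast, so nothing is read from these counts. The median over all genes tested was 0.02. The plot of the listed genes by array shows how the 4 arrays of each gene lie.

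**Figure D1:**
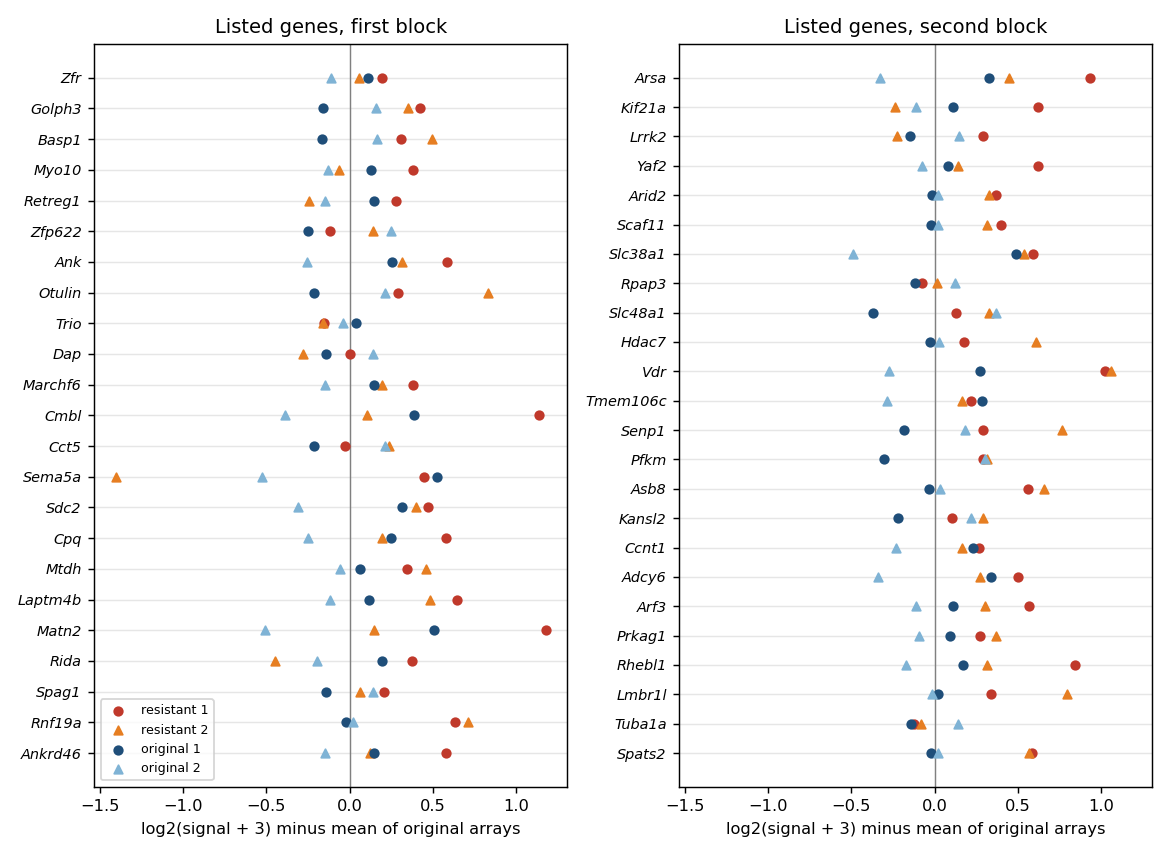
For each of the 47 listed genes, from top to bottom in chromosome order, the points give log2(signal + 3) on each array minus the mean of the 2 original arrays; red and orange are resistant arrays, dark and light blue original arrays. In Rnf19a, Vdr, Asb8 and Spats2 the resistant points stand well right of the original ones, while in 23 genes the groups overlap.

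Within the replicate numbers, which are parts of the comparison that chose the genes, the values are a description too. The listed genes' median was 0.33 in number 1 and 0.34 in number 2, with 44 of 47 above 0 in number 1 and 35 of 47 in number 2. In 34 genes the value was above 0 in both, beside 32.0% of all genes tested, and in 2 it was below 0 in both. Those 2 were Trio and Sema5a. Between arrays of the same group, a comparison that the choice of genes did not use, the median of array 2 minus array 1 was -0.07 in the resistant pool and -0.15 in the original population, beside -0.06 and -0.04 over all genes tested. The first block moved more between arrays of a group, by -0.16 in the resistant pool and -0.23 in the original population, than the second, by -0.03 and 0.

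**Figure D2:**
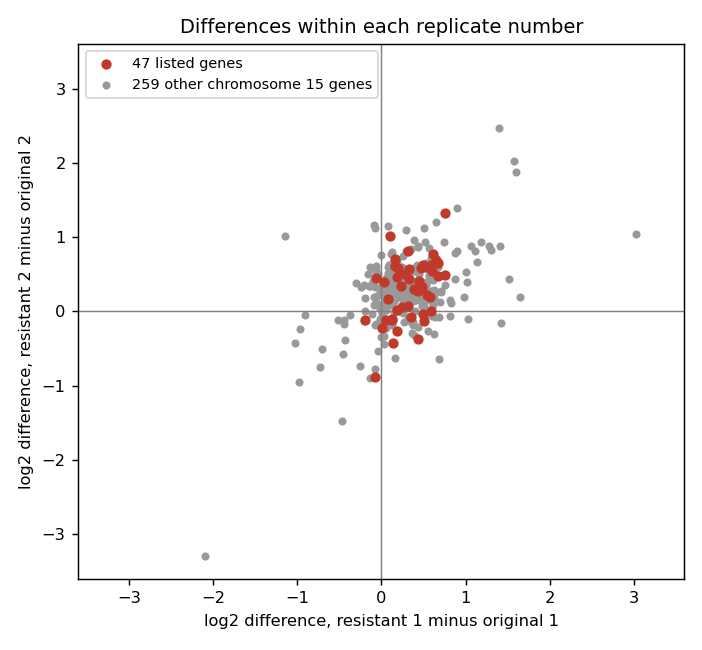
Each point is a gene of chromosome 15, with the log2 difference of resistant 1 minus original 1 on the horizontal axis and of resistant 2 minus original 2 on the vertical axis; red points are the 47 listed genes and grey points the 259 others. Of the listed genes 34 lie above and to the right of 0, where both differences are positive.

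The rest of the chromosome showed values of the same size. The 259 tested genes of chromosome 15 that were not listed had a median of 0.28, with 221 above 0 and 38 below. In 129 of them both resistant arrays lay above both original arrays, which is 49.8%, where the listed genes gave 48.9%. Ahead of the first block 24 genes had a median of 0.34, between the blocks 182 genes had 0.27, and after the second block 50 genes had 0.29. Along the chromosome all 282 windows of 25 neighbouring tested genes had a median above 0. The windows slide gene by gene, so neighbouring windows share most of their genes and are not separate observations. Many of them hold listed genes. The medians of the windows ran from 0.158 to 0.354. The window from Arsa to Spats2, which holds the second block, was among those tied at 0.354, as was the window from Lrrk2 to Mcrs1, and the window from Lgals1 to Atf4 was among those tied at 0.158. The name of the list speaks of higher runs, yet the shift was not limited to them: the medians before, between and after the blocks lay within 0.1 of that of the listed genes. No test sets the listed genes apart from the others.

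**Figure D3:**
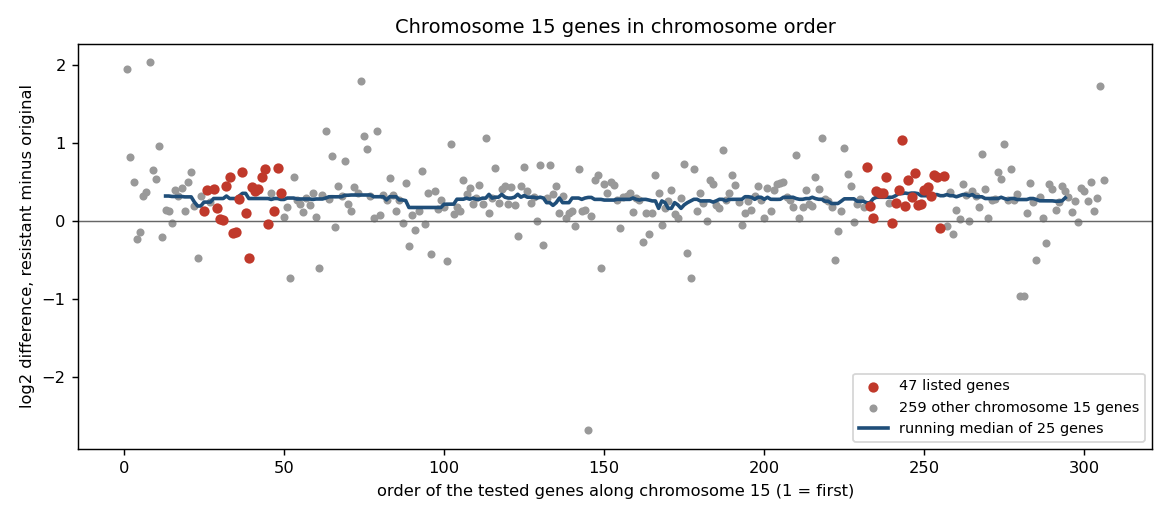
The tested genes of chromosome 15 are placed in chromosome order on the horizontal axis, with their log2 difference, resistant minus original, on the vertical axis. The running median of 25 genes (blue line) stays between 0.158 and 0.354 along the chromosome, in the listed genes (red) and outside them (grey).

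At the edges of the blocks the genes inside and outside had mixed values. Zfr, at the start of the first block, had 0.12, and Sub1 and Npr3 just before it had 0.32 and -0.48. Ankrd46, at its end, had 0.35, while Pabpc1 and Ywhaz after it had 0.05 and 0.17. Arsa opened the second block at 0.69, and Chkb and Sco2 before it had 0.18 and 0.28. Spats2 closed it at 0.57, and Kcnh3 and Mcrs1 after it had -0.07 and 0.37. Myc, which lies between the blocks, did not share the sign: its signals were 1378 and 2104 in the resistant pool, against 1979 and 2272 in the original population, a difference of -0.32 with overlapping arrays.

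Set beside the other chromosomes, chromosome 15 had the highest median. It was 0.29 over 306 genes, 0.27 in number 1 and 0.28 in number 2, and 85.6% of its genes were above 0. The medians of the 19 other chromosomes, Y left out for its few genes, ran from -0.30 on chromosome 3 to 0.08 on chromosomes 4 and X, and their shares above 0 from 15.2% to 63.9%. Between arrays of the same group the chromosome 15 median was -0.02 in the resistant pool and -0.01 in the original population, inside the ranges of the others, -0.18 to 0 and -0.12 to 0.02. Whether DNA copy number differs between the populations was not tested.

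**Figure D4:**
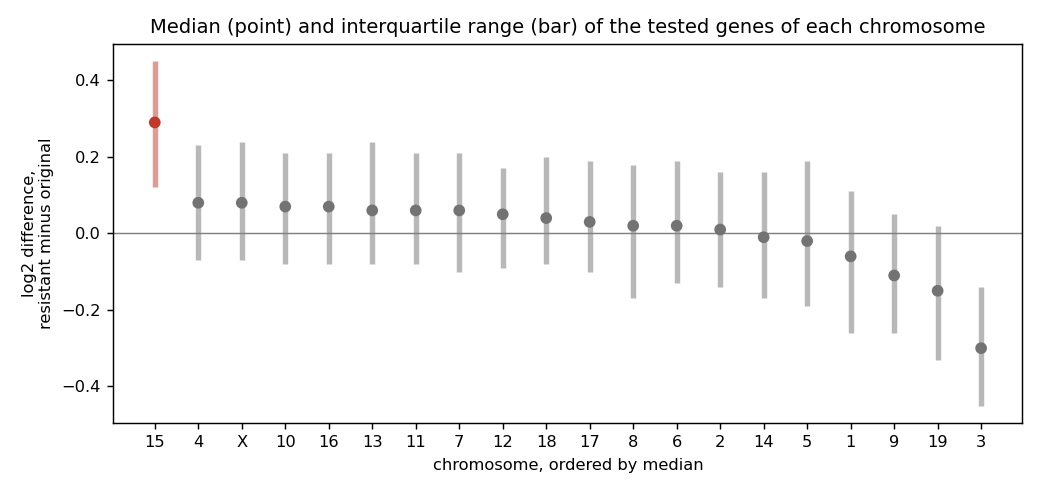
Points are the median log2 difference, resistant minus original, of the tested genes of each chromosome and bars their interquartile range, with chromosomes ordered by median. Chromosome 15 (red) stands at 0.29, the next chromosomes at 0.08, and chromosome 3 is lowest at -0.30.

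In the first block the largest differences were those of Rnf19a, Matn2, Cmbl, Otulin, Laptm4b and Ank. Rnf19a, a RING-type ubiquitin ligase gene, had signals of 804.6 and 850.7 in the resistant pool, against 510.6 and 525.7 in the original population, a difference of 0.67 ± 0.185 (SE). Both resistant arrays stood far above both original ones, and the values within the numbers were 0.65 and 0.69. Its other tested probe set gave less, 0.30, and overlapped, with 334.1 and 251.4 in the resistant pool, against 286.6 and 192.5 in the original population. Laptm4b, which encodes a membrane protein of lysosomes and late endosomes, had 3282 and 2929 in the resistant pool, against 2278 and 1934 in the original population (0.56 ± 0.170 SE). Its groups did not overlap, and its other tested probe sets gave 0.37 and 0.60. Otulin, the deubiquitinase that cuts linear ubiquitin chains, had 814.5 and 1186 in the resistant pool, against 573.8 and 770.2 in the original population (0.56 ± 0.234 SE). The arrays numbered 2 were the higher ones in both groups, and within the numbers the difference was 0.50 and 0.62.

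Matn2 encodes matrilin, a filament-forming matrix protein, and Cmbl a hydrolase. Matn2 had 492.5 and 239.8 in the resistant pool, against 307.7 and 151.3 in the original population, and Cmbl had 230.3 and 111.2, against 135.7 and 78.3. Their differences, 0.66 ± 0.395 (SE) and 0.62 ± 0.414 (SE), were among the largest of the block, yet the groups overlapped, because the arrays numbered 1 lay farther above those numbered 2 than the groups lay apart. Within the numbers Matn2 gave 0.67 and 0.65 and Cmbl 0.75 and 0.49. Ank, a membrane protein needed for the export of pyrophosphate, had 2461 and 2047 in the resistant pool, against 1963 and 1374 in the original population (0.45 ± 0.205 SE), without overlap.

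Genes of the cell surface and cytoskeleton in the first block varied. Sdc2, a heparan sulfate proteoglycan of the cell surface, had 1694 and 1615 in the resistant pool, against 1518 and 984.2 in the original population (0.43 ± 0.215 SE). The groups did not overlap, but the gap came mostly from number 2, at 0.71, with 0.16 in number 1. Basp1, a membrane-attached protein abundant in growing axons, had 4562 and 5170 in the resistant pool, against 3279 and 4120 in the original population (0.40 ± 0.178 SE), and the groups did not overlap. Myo10, the myosin of filopodia, had 1492 and 1098 in the resistant pool, against 1252 and 1049 in the original population, a difference of 0.16 with overlapping arrays. Its dimmer probe sets disagreed, at 0.27 and -0.45. Trio had 679.1 and 675.8 in the resistant pool, against 774.2 and 735.4 in the original population (-0.16 ± 0.182 SE). Its other tested probe set gave -0.03 with overlapping arrays. Sema5a, a semaphorin, was dim and had 132.9 and 34.8 in the resistant pool, against 140.6 and 66.5 in the original population, which overlapped (-0.48 ± 0.592 SE).

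Mtdh (metadherin, a gene often amplified in human breast cancer) had 4341 and 4690 in the resistant pool, against 3564 and 3280 in the original population, a difference of 0.40 ± 0.161 (SE). Its groups did not overlap, and all 4 of its other tested probe sets were above 0, between 0.12 and 0.38. Golph3, a Golgi protein that binds phosphatidylinositol 4-phosphate, had 1260 and 1199 in the resistant pool, against 840.2 and 1051 in the original population (0.39 ± 0.185 SE), again without overlap. Its 3 other tested probe sets lay at 0.17, 0.35 and 0.27. Dap, a gene first found in interferon-induced cell death, had 5041 and 4154 in the resistant pool, against 4575 and 5550 in the original population. Its arrays overlapped and its sign differed between the numbers, at 0.14 and -0.42. Cct5, a subunit of the CCT chaperonin that folds actin and tubulin, had 8226 and 9870 in the resistant pool, against 7229 and 9724 in the original population, a difference of 0.10 with overlapping arrays.

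The first block held 8 more genes. Marchf6, a ubiquitin ligase of the endoplasmic reticulum, had 2412 and 2120 in the resistant pool, against 2055 and 1675 in the original population, without overlap (0.28). Cpq, a secreted carboxypeptidase, and Ankrd46 had differences of 0.38 and 0.35 with overlapping arrays. The RNA-binding protein gene Zfr had 0.12, Spag1, needed for the assembly of ciliary dynein, 0.13, Retreg1, a receptor for autophagy of the endoplasmic reticulum, 0.02, and Zfp622 0.01. The other tested probe set of Zfp622 gave 0.29, also with overlapping arrays. Rida, an enzyme that removes reactive imines, had -0.04. The arrays of these 5 genes overlapped, and Spag1 was near the filter with signals of 73 and 65.7 in the resistant pool, against 56.7 and 69.6 in the original population.

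In the second block Vdr, the nuclear receptor for the active form of vitamin D, had the largest difference of the 47. Its signals were 410.9 and 421.7 in the resistant pool, against 243.3 and 165.6 in the original population, a difference of 1.04 ± 0.257 (SE) or 2.06-fold. Both resistant arrays were high and close to each other, and the difference was 0.75 in number 1 and 1.33 in number 2. The other probe set of Vdr gave 1.13, with 309.5 and 498.7 in the resistant pool, against 167.5 and 188.1 in the original population. Cyp24a1, the enzyme that breaks down active vitamin D and a known target of the receptor, lay under the filter, with signals of 5.4 and 7.9 in the resistant pool, against 47.9 and 34.9 in the original population.

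Arsa, Asb8, Rhebl1, Spats2 and Lmbr1l followed Vdr, each with both resistant arrays above both original ones. Arsa, the lysosomal arylsulfatase, had 805 and 573.7 in the resistant pool, against 527.6 and 334.8 in the original population (0.69 ± 0.264 SE). Asb8, a SOCS-box protein, had 748.8 and 801.3, against 495.9 and 519.2 (0.61 ± 0.188 SE). In Asb8 the arrays of a group lay close together, and its other probe set gave 0.46. Spats2 was of the same kind, with 1037 and 1024 in the resistant pool, against 681.8 and 702 in the original population (0.57 ± 0.176 SE). Rhebl1, a small GTPase related to Rheb, had 477.7 and 330.6 in the resistant pool, against 299.7 and 235.2 in the original population (0.58 ± 0.260 SE). Lmbr1l was dim, with 82 and 113.6 in the resistant pool, against 65.2 and 63.5 in the original population (0.56 ± 0.378 SE).

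Several genes of the second block encode proteins that act in the nucleus. Arid2, the subunit that defines the PBAF chromatin remodeller, had 1793 and 1735 in the resistant pool, against 1368 and 1403 in the original population (0.35 ± 0.163 SE). Hdac7, a class IIa histone deacetylase, had 753.2 and 1020 in the resistant pool, against 655.2 and 679.5 in the original population (0.39 ± 0.204 SE). Neither overlapped, and the spread of Hdac7 was within the resistant pool. The other tested probe set of Hdac7 gave 0.25 with overlapping arrays. Senp1, a protease that removes SUMO, had 637.2 and 886.5 in the resistant pool, against 458.8 and 592.7 in the original population (0.52 ± 0.229 SE), without overlap. Its other tested probe set gave 0.36 with overlapping arrays. Yaf2, a partner of Polycomb RING proteins, had 1652 and 1187, against 1134 and 1018, and Scaf11, a splicing factor, 2645 and 2497, against 1983 and 2036. Both were without overlap, at 0.38 and 0.35. The 3 other tested probe sets of Scaf11 gave 0.28, 0.07 and 0.19. Kansl2, a subunit of the NSL acetyltransferase complex, had 3414 and 3873 in the resistant pool, against 2728 and 3686 in the original population, which overlapped (0.20). Ccnt1, the cyclin of the elongation kinase P-TEFb, had 566.2 and 527.9 in the resistant pool, against 553.4 and 400.1 in the original population, which also overlapped (0.21).

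Other genes of the second block act in metabolism, transport or signalling. Prkag1, a regulatory subunit of the AMP-activated protein kinase, had 1078 and 1152 in the resistant pool, against 949.6 and 836.6 in the original population (0.32 ± 0.177 SE), without overlap. Its other tested probe set gave 0.15 with overlapping arrays. Pfkm, the muscle-type phosphofructokinase, had 542.1 and 551.5 in the resistant pool, against 358.3 and 548.5 in the original population. The arrays overlapped, and the difference of 0.30 came from number 1, at 0.59, with 0.01 in number 2. Slc38a1, a glutamine transporter gene, was dim with 142.7 and 137.7 in the resistant pool, against 133 and 66.1 in the original population. The groups did not overlap, but its 0.56 ± 0.381 (SE) came from number 2, at 1.02, with 0.10 in number 1. Arf3, a small GTPase of Golgi traffic, had 1856 and 1544 in the resistant pool, against 1356 and 1158 in the original population (0.43 ± 0.181 SE), without overlap. Its 3 other tested probe sets gave 0.49, 0.55 and 0.04. Adcy6, an adenylyl cyclase, had 662.7 and 565, against 591.4 and 368.9, which overlapped (0.39), and Slc48a1, a haem transporter, had 0.23 with overlap.

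The remaining genes of the second block lay at or below 0.19. Lrrk2, the kinase mutated in some families with Parkinson disease, had 291.8 and 203.9 in the resistant pool, against 215.1 and 264.4 in the original population, a difference of 0.03. Rpap3, a subunit of the R2TP co-chaperone, had 414.4 and 439.9 in the resistant pool, against 401.1 and 474.5 in the original population (-0.03). Tuba1a, an alpha tubulin, had 8505 and 8783 in the resistant pool, against 8428 and 10213 in the original population (-0.10 ± 0.173 SE); its transcript is close in sequence to other alpha tubulins, so its signal is uncertain. Kif21a, a kinesin, and Tmem106c had 0.19 each. The arrays of all 5 genes overlapped between the groups.

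Several listed genes were measured by more than 1 probe set. Of their 85 probe sets 81 passed the filter. Beside the brightest of each gene this left 34, spread over 22 genes, and 31 of these 34 were above 0, with a median of 0.27 and a range of -0.45 to 1.13. In 33 of 34 the sign was that of the brighter probe set; the exception was a Myo10 probe set. Probe sets of 1 gene on the same arrays share their RNA and are no replicates.

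Many listed genes encode 1 subunit or 1 member of a family whose other genes lie on other chromosomes, and 16 such families were set beside them. The 16 listed genes had a median of 0.37, with 14 above 0. Their 52 tested partners on other chromosomes had a median of -0.02, with 25 above 0 and 27 below and a range of -0.67 to 0.45. Of the 52, 0 passed the limma test with Benjamini-Hochberg adjustment, where 0.319% of all genes tested did. At an unadjusted limma p under 0.05 there were 2, 1 in each direction. Over all 7514 genes tested 4.07% were higher and 302 genes were lower. Each listed gene of a family was drawn from the shift itself, so the gap between these medians carries no test. In the PBAF complex Arid2 had 0.35 and Smarcd1, also on chromosome 15, had 0.38 with overlapping arrays, at 0 in number 1 and 0.76 in number 2, while 8 subunits on other chromosomes lay between -0.20 and 0.09. Among ADP-ribosylation factors Arf3 had 0.43 and the 5 others, on other chromosomes, lay between -0.11 and 0.03.

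Other families followed this in part. Of the phosphofructokinases, Pfkm had 0.30, while Pfkl, the liver type, had 1159 and 1581 in the resistant pool, against 1867 and 2478 in the original population (-0.67), and Pfkp, the platelet type, had -0.34. Otulin had 0.56, Sharpin, a subunit of the linear ubiquitin ligase that also lies on chromosome 15, had 0.21, and Rbck1, a further subunit on chromosome 2, had 0.10. In the NSL complex Kansl2 had 0.20, inside the range of -0.21 to 0.24 of its 5 tested partners on other chromosomes. Mcrs1, also on chromosome 15, had 0.37. The SUMO protease genes on other chromosomes lay between -0.09 and 0.26, beside 0.52 for Senp1. Hdac5, on chromosome 11, had -0.17 with overlapping arrays, beside 0.39 for Hdac7. Prkag1 had 0.32, and the 2 other tested subunits of its kinase had 0.04 and -0.13. Adcy6 had 0.39, beside 0.23 for Adcy9 and -0.29 for Adcy7. Vdr had 1.04, while its partner receptor genes Rxra and Rxrb had 0.37 and -0.04. Of the amino acid transporters, Slc38a1 had 0.56 and its neighbour Slc38a2 had 0.23, and the 3 on other chromosomes lay between -0.24 and 0.05.

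Of the other listed genes, Cct5, Rpap3, Sdc2 and Ccnt1 lay inside or near the range of their families. Cct5 had 0.10, within the range of -0.13 to 0.18 of the 7 other CCT subunits. Rpap3 had -0.03, and the 3 other R2TP genes lay between -0.16 and 0.01. Sdc2 had 0.43 and Sdc1, on chromosome 12, had 0.45, with 2381 and 2531 in the resistant pool, against 2143 and 1499 in the original population. The other syndecans, Sdc3 and Sdc4, had 0.13 and -0.05 with overlapping arrays. Ccnt1 had 0.21, inside the range of -0.36 to 0.38 of its 4 partners, of which Hexim1, an inhibitor of P-TEFb, was the highest. Tuba1a had -0.10. The only other alpha tubulin gene tested, Tuba4a on chromosome 1, had 0.16 with overlapping arrays, which gives no range.

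**Figure D5:**
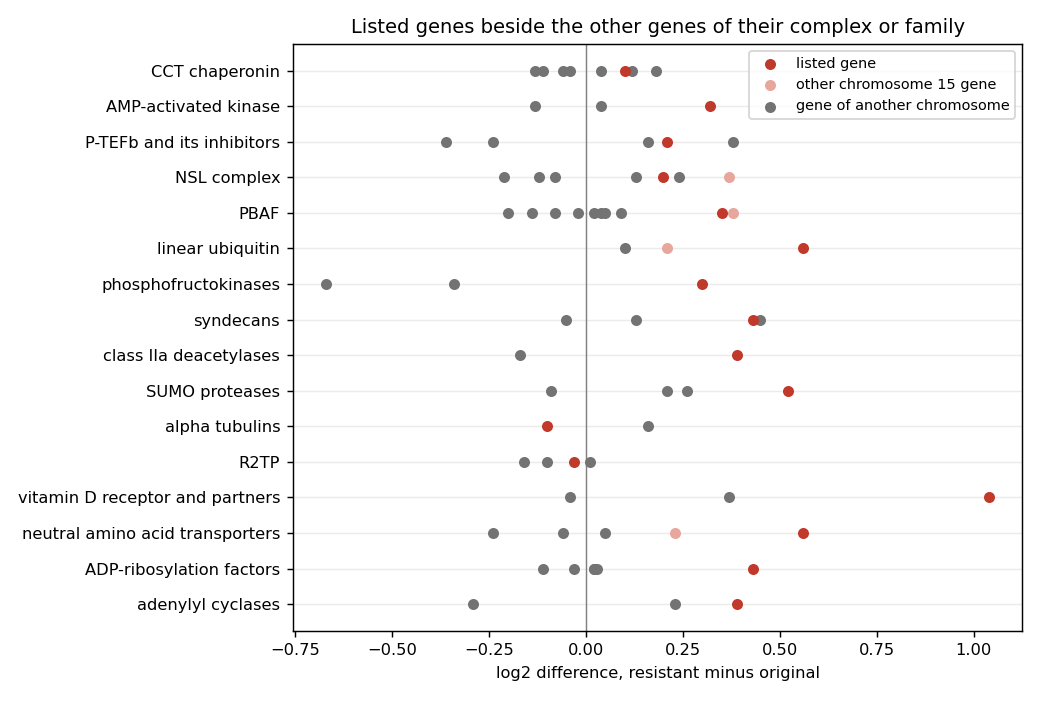
Each row is a complex or family and each point a tested gene, with its log2 difference, resistant minus original, on the horizontal axis; red points are listed genes, pale red points other genes of chromosome 15 and grey points genes of other chromosomes. The grey points have a median of -0.02 and the red ones 0.37.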

How the data were processed

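RNA of NF639 cells was measured on 4 Affymetrix Mouse 430A 2.0 arrays, 2 of the resistant pool and 2 of the original population. As deposited, each value is a linear MAS5 signal (an intensity), per the submitters' processing notes, and no source used here gives the software version. Precision is limited by having 2 arrays a group. The table held 22690 probe sets, 64 of them controls; 20380 had 1 gene symbol in the platform annotation, 691 several and 1555 none listed. For chromosome and gene order, 20351 of the single-symbol ones could be placed in a gene table of GRCm38.p6; promoter windows are RefSeq's on GRCm38.p6.

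Each array was rescaled so that all had the same 2% trimmed mean, log2(signal + 3) was taken, and probe sets under the 40th percentile of mean signal (51.9) were left out, which kept 13576. Signals printed are the deposited ones. limma 3.58.1 in R 4.3.3 (lmFit, eBayes with a mean-variance trend) gave differences and their SE, with Benjamini-Hochberg adjustment at 0.05; the procedure was tested on simulated data. Alternatives were other pseudocounts, filters and scalings, all probe sets of a gene, no variance trend, the replicate block and leaving out each array. Values on every array are given for the 6 largest and 2 smallest differences of each block and for genes of known role. The listed genes, the partner and marker lists and the tests were chosen with earlier results of these data known.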

Additional observations from a re-analysis of the deposited data

How the results depend on the processing

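The listed genes' median difference, 0.35, ran from 0.26 (without original replicate 2) to 0.40 (median scaling) over the alternatives, and 36 (without original replicate 1) to 43 (median scaling) of the 47 lay above 0, or 35 of 40 with a filter at the 60th percentile. Without each array in turn the median was 0.26 to 0.37. The first block was less steady than the second: its median of 0.35 was 0.15 without resistant replicate 1, 0.19 without original replicate 2 and 0.38 without resistant replicate 2, while the second block's 0.37 ran from 0.31 to 0.43. The median of the other chromosome 15 genes, 0.28, was 0.25 to 0.28 without each array, 0.27 and 0.24 with pseudocounts of 16 and 64, 0.22 with no filter, 0.29 with quantile normalization and 0.32 with median scaling. Median scaling moved the median of all genes to 0.06, against 0.02.

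The count of called probe sets, 31, depended on the settings: 81 to 125 without each array, 49 with median scaling, 11 with a filter at the 60th percentile, 8 with quantile normalization, and 5 both with no filter and with no variance trend. The labels share replicate numbers but do not say that a number marks an experiment. Deviations of the arrays numbered 2 from their group means correlated at 0.35 across probe sets. With 2 arrays a group, the arrays numbered 1 give the same value by construction. With the replicate block 740 probe sets passed, in a fit with 1 residual degree of freedom. That fit took the variance of every probe set from the fitted trend alone, which the main fit did not. The listed genes' median stayed 0.35.

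Of the listed genes, 9 changed sign without original replicate 1, 6 without original replicate 2, 5 without resistant replicate 1 and 4 without resistant replicate 2, and 3 moved by more than their spread with a pseudocount of 64, 3 with median scaling and 5 with the mean of all probe sets of a gene.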

Other observations

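Outside the listed genes, chromosome 15 held genes with far larger differences than the shared shift, and those named here were chosen after their values were seen. Of the 306 chromosome 15 genes 0 passed the limma test with Benjamini-Hochberg adjustment, where 0.319% of all genes tested did. At an unadjusted limma p under 0.05, 57 were higher and 5 lower. Over all 7514 genes tested 4.07% were higher and 302 genes were lower. Has2, a hyaluronan synthase, had signals of 1680 and 2561 in the resistant pool, against 897.8 and 973.5 in the original population, a difference of 1.15 ± 0.215 (SE). Ptger4, a receptor for prostaglandin E2, had 297.7 and 127, against 34.1 and 60.3 (2.03 ± 0.464 SE). Tnfrsf11b, the decoy receptor osteoprotegerin, had 163.3 and 95.8, against 53.1 and 21.3 (1.79 ± 0.503 SE). Zfp385a had 127 and 171.2, against 39.8 and 44.7 (1.73 ± 0.376 SE). Ptger4, Tnfrsf11b and Zfp385a were dim in the original population, with mean signals there of 47.2, 37.2 and 42.2. These means lay below the signal set by the filter on dim probe sets, so the sizes of the 3 differences are uncertain. Within the numbers Ptger4 gave 3.02 and 1.04, Tnfrsf11b 1.57 and 2.02, and Zfp385a 1.6 and 1.87.

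Others lay the opposite way. Ncf4, a subunit of the phagocyte oxidase, had 66.2 and 11.9 in the resistant pool, against 292.8 and 142.4 in the original population (-2.69 ± 0.653 SE). Its mean signal in the resistant pool, 39.1, lay below the signal set by the filter, so the size of its difference is uncertain. The epithelial keratin gene Krt80 had 384.5 and 738.4, against 759.9 and 1430 (-0.96 ± 0.342 SE), and Card10, a scaffold that leads to NF-kappaB, had 738.3 and 738.1, against 1207 and 1048 (-0.61 ± 0.179 SE). The genes named above were taken from those whose groups did not overlap, so the lack of overlap is no result. Angpt1 (1.15) and Syngr1 (-0.73), also on chromosome 15, had differences of like size with overlapping arrays. Over all genes tested 19.9% had both resistant arrays above both original ones, and 1300 of 7514 had both below.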
